A study of Mus musculus with 4 samples.

Results

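Perineurial cells form the layered sheath that wraps each nerve fascicle, and 502 of 18153 filtered cells from mouse hindlimb muscle met the rule that defined them here. A cell was filtered in if it had more than 200 genes and under 10% of its unique molecular identifiers (UMIs) from the mitochondrial genes. A member had at least 4 of 9 perineurial genes detected, namely Cldn1, Krt19, Moxd1, Lypd2, Itgb4, Ntn4, Slc6a13, Lgals7 and Crabp2. In a member, the summed UMIs of 8 genes of myelinating Schwann cells (Ncmap, Cldn19, Mag, Mal, Pllp, Prx, Egr2 and Fxyd3) also made up under 0.1% of the total. Members were chosen by the measured values of these 17 genes, which are therefore given below as a description.

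Droplet-based 3' single-cell RNA sequencing was run on hindlimb muscle (tibialis anterior with gastrocnemius) from male mice aged 2 months. The genotypes were S100GFP-tg (WT) and S100GFP-tg Sod1-/- (Sod1KO), the latter lacking the cytosolic superoxide dismutase. All mice carried the S100GFP transgene with GFP under the S100B promoter, and the sort therefore follows the activity of that promoter, not cell type. The muscles of 4 mice per genotype were pooled, and viable cells of each pool were sorted into GFP+ and GFP- fractions that gave 1 library each. With 1 library per group, no difference between libraries could be tested, and every interval below is a 95% interval of counting error only. The mice within a pool cannot be told apart, and PCR, sorting and variation between animals lie outside the intervals. Shares of cells are shares of a sorted fraction, which the gates set. Each library held 21959719 to 105954116 UMIs over 2052 to 7267 barcodes.

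The perineurium is built of flattened cells joined by tight junctions and coated by basal lamina on both faces. Together with the endoneurial vessels it forms the blood-nerve barrier, which limits diffusion and relies on transporters such as the glucose carrier GLUT1. During development the sheath forms under the control of Desert hedgehog, a ligand made by Schwann cells and received through the Patched receptor.

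Members were found in all 4 libraries. There were 63 of 4767 cells in the WT GFP+ library (1.32%, Clopper-Pearson interval 1.02 to 1.69), 283 of 6291 in Sod1KO GFP+ (4.50%, 4.00 to 5.04), 17 of 1665 in WT GFP- (1.02%, 0.596 to 1.63) and 139 of 5430 in Sod1KO GFP- (2.56%, 2.16 to 3.02). The share was higher in Sod1KO by 3.18 percentage points in the GFP+ fraction (Newcombe interval 2.57 to 3.79) and by 1.54 points in the GFP- fraction (0.818 to 2.13). The GFP+ difference rested on the limit on myelin genes. Without that limit, 425 WT cells (8.92%) and 533 Sod1KO cells (8.47%) had at least 4 perineurial genes, a difference of -0.443 points (-1.52 to 0.611). The limit removed 362 of the 425 WT cells and 250 of the 533 Sod1KO cells, called mixed cells from here on. In the GFP- fraction it removed 0 WT cells and 1 Sod1KO cell.

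**Figure D1:**
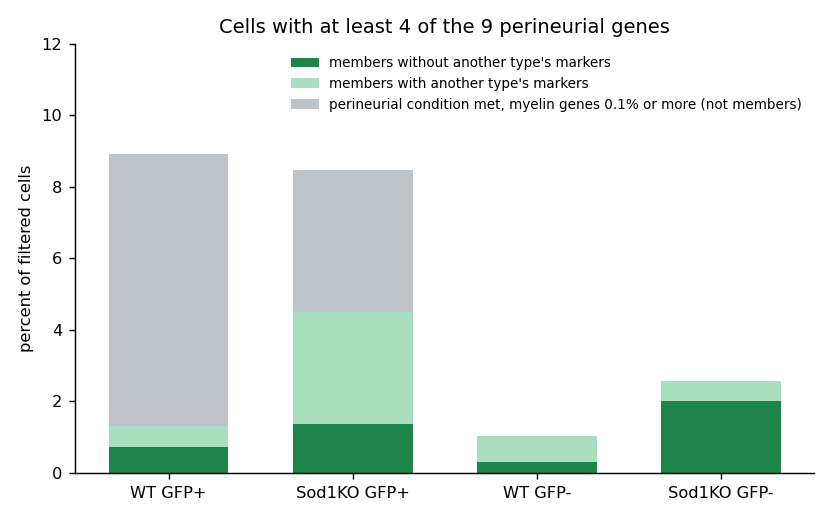
Percent of filtered cells (y axis) with at least 4 of the 9 perineurial genes in each library (x axis), split into members without another cell type's markers, members with them, and cells over the myelin limit that were not members. The 2 GFP+ bars have near equal heights (8.92% and 8.47%), while the green part that holds the members is 1.32% in WT GFP+ and 4.50% in Sod1KO GFP+.

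Many members also carried the markers of another cell type. Of the 63, 283, 17 and 139 members of WT GFP+, Sod1KO GFP+, WT GFP- and Sod1KO GFP-, 25, 185, 0 and 8 had at least 2 of 4 Schwann cell markers. In the WT GFP- library, 12 of the 17 members had at least 4 of 8 endothelial markers and 9 had at least 4 of 8 mural markers, and its values therefore describe the 17 barcodes and not a clear perineurial population. Markers of any other type (Schwann, endothelial, mural, macrophage, tenocyte or erythroid) were carried by 28, 197, 12 and 30 members (44.4%, 69.6%, 70.6% and 21.6%). The share in Sod1KO GFP+ was thus like that in WT GFP-, and values over all Sod1KO GFP+ members also describe a mixed set of barcodes. Once members with another type's markers were set aside, 35, 86, 5 and 109 members were left. Their share in the GFP+ fraction was then higher in Sod1KO by 0.633 points (0.248 to 1.01). The median UMIs of the members set aside were 24395, 25196, 11652 and 29473.5, against 9248, 11500, 26529 and 17799 in those left. Doublets were not removed: a simulation-based caller marked 10, 41, 0 and 10 members, and all of these carried another type's markers. No barcode was shared between the members of any 2 libraries. Results between libraries are given below for all members and again for the members left, with the 2 sets named in each case. Values are sums over members, so a difference in which members are present and a difference in level per cell cannot be told apart. Ratios within a named group of members compare more similar cells. They do not settle this either, because the groups were made from the expression of the same cells.

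The step from 3 to 4 rule genes was not equal in all libraries. In the WT GFP+ library, 41 cells under the myelin limit had 3 of the 9 genes, and their Cldn1 level was 32.7 CPM (counts per 1e6 UMIs of the summed cells), while Tenm2 was at 63.6 CPM. The 6 members with exactly 4 genes had 581 CPM of Cldn1 and 864 CPM of Tenm2. In Sod1KO GFP+ Cldn1 stood at 129 CPM with 3 genes and 268 CPM with 4, and Tenm2 stood at 203 and 819 CPM. In WT GFP- the 8 members with 4 genes had 62.2 CPM of Cldn1 and 31.1 CPM of Tenm2, against 20.5 and 36.9 CPM in 14 cells with 3. In Sod1KO GFP- Cldn1 stood at 40.0 CPM with 3 genes and 277 CPM with 4. In WT GFP+ the median depth of the cells with 3 genes was 28680 UMIs, against 9168 in the members with 4.

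The 9 genes of the rule were high in members of most libraries. Values are CPM in the order WT GFP+, Sod1KO GFP+, WT GFP- and Sod1KO GFP-. Cldn1, the claudin of tight junctions that marks perineurium, stood at 445, 400, 534 and 686. Krt19, an intermediate filament of epithelia, stood at 220, 163, 368 and 402. The hydroxylase-like gene Moxd1 stood at 174, 129, 195 and 239. These 3 genes kept within a factor of 3 over the libraries. Lypd2 was lower in the GFP+ libraries (219 and 120) than in the GFP- libraries (807 and 816). Itgb4, the integrin chain that binds laminin in hemidesmosomes, showed the same order (286, 125, 602 and 557), as did the laminin-like netrin Ntn4 (86.9, 52.9, 205 and 182). Slc6a13, a carrier of GABA and taurine, was near even (109, 67.2, 57.6 and 66.5). Lgals7, a galectin of stratified epithelia, had the widest range (145, 826, 0 and 131), and Crabp2, which carries retinoic acid inside the cell, stood at 179, 222, 32.0 and 87.2.

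Genes outside the rule also set members apart. The 20 genes with the largest mean log2 ratio over all other cells of a library held 8 of the 9 rule genes, together with Stra6, Tenm2, Hcn4, Sfrp5, Ctxn3, Wnt6, Olfr1033, Klf5, Cnksr2, Ralgps2, Slc2a1 and Gsta4. Slc2a1, which encodes GLUT1, stood at 345, 226, 816 and 668 CPM in members and at 23.0, 26.7, 20.0 and 21.5 CPM in endothelial-type cells of the same libraries. Tenm2, a transmembrane teneurin, stood at 1154, 1287, 342 and 1081 CPM, against at most 2.61 CPM in endothelial-type cells. Stra6, the membrane receptor for retinol-binding protein, stood at 66.2, 120, 115 and 198 CPM, and Hcn4, a pacemaker channel, at 64.6, 62.2, 317 and 336 CPM. Of 12 further perineurial markers (Slc2a1, Msln, Tjp1, Cgnl1, Col18a1, Lama2, Ptch1, Perp, Tenm2, Efnb3, Dpp6 and Wnt6), all were detected in members of every library except Dpp6 in WT GFP-, and 96.8%, 97.2%, 76.5% and 97.1% of members had at least 4 of them. Msln had only 2 and 19 UMIs in WT and Sod1KO GFP+ members. At least 4 of the 12 were also detected in 31.2%, 28.4%, 15.2% and 21.8% of the other cells of each library. In the GFP+ libraries the other cells include the mixed cells, which raises their level of these genes.

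**Figure D2:**
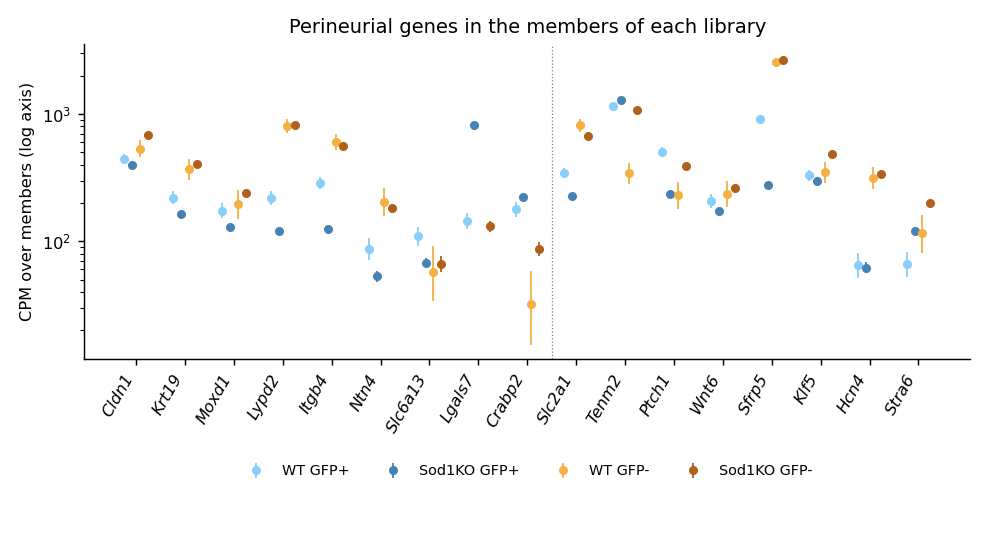
CPM over the members of each library (y axis, log scale) with 95% Poisson intervals, for the 9 rule genes left of the dotted line and 8 other genes right of it. Lgals7 is highest in Sod1KO GFP+ (826 CPM) and has no point in WT GFP-, where it had 0 UMIs, while Sfrp5 is lowest in Sod1KO GFP+ (275 CPM).

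The background in endothelial-type cells differed between leading genes. After each cell was thinned to 1000 UMIs, 47.6%, 33.2%, 29.4% and 49.6% of members had a UMI of Cldn1, against 0.164%, 0, 0.153% and 0 of endothelial-type cells. Without thinning, 100%, 96.8%, 88.2% and 97.8% of members had one, and their depths had medians of 11523, 19785, 14078 and 20119 UMIs. The endothelial-type cells, at 14815, 14233, 8574.5 and 15452.5 UMIs, gave 0.972%, 1.44%, 1.13% and 0.332%. The 0 shares allow up to 0.484% and 0.0912%. Sfrp5 was in 52.4%, 21.6%, 47.1% and 69.8% of thinned members and in 1.97%, 0.645%, 0.844% and 0.0608% of thinned endothelial-type cells. For Slc2a1 these shares were 39.7%, 21.2%, 29.4% and 45.3% against 2.13%, 1.94%, 1.69% and 1.67%. Without thinning, Sfrp5 was in 10.7% and Slc2a1 in 26.4% of endothelial-type cells of WT GFP+, against 96.8% and 90.5% of members. Lgals7 was found in 6.35%, 38.5%, 0 and 12.2% of thinned members, where the 0 of 17 allows up to 17.6%.

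The targeted gene was read in every library. Sod1 stood at 104, 91.9, 163 and 128 CPM in the members (125, 597, 51 and 392 UMIs), so the level in the libraries labelled Sod1KO was like that in the WT libraries. The Sod1KO over WT log2 ratio in GFP+ members was -0.17 (-0.45 to 0.12). Which exons the knockout allele lacks was not given in the sources used here, and 3' tags that lie outside it would still be counted. The Sod1 level thus gives no check of the labels, and genotype is taken from the labels throughout.

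The members were not uniform. Clustering them without the 17 rule genes gave 8 groups. Group 1 (112 cells) was led by Ppargc1a, Cxadr, Chchd10, Tango6, Rspo3 and Pde1c, and held 30 of 63, 31 of 283, 0 of 17 and 51 of 139 members of the 4 libraries. Group 4 (78 cells) was led by Tuft1, Robo2, Aldh1a3, Col23a1, Lgals7 and Plac8, and 55 of its cells came from Sod1KO GFP+. Group 5 (49 cells) was led by Col6a5, Npr3, Rspo1, Lrrn1, Msln and Inmt, and 43 of its cells came from Sod1KO GFP-. A group mostly of 1 library may be that library and not a kind of cell. The 12 further perineurial markers summed to 6020 CPM in group 1, 5613 CPM in group 4 and 4016 CPM in group 5, against 3569 CPM in group 3 and 1739 to 2231 CPM in groups 2, 6, 7 and 8. Of these 12, Dpp6 had 0, 1 and 0 UMIs in groups 1, 4 and 5, against 45 in group 2 and 8 in group 3. The 9 rule genes, whose levels chose the cells, summed to 3724, 3463 and 4537 CPM in groups 1, 4 and 5 and to 1834 CPM in group 3.

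Groups 2, 3, 6, 7 and 8 held RNA of other cell types beside the perineurial genes. Group 3 (98 cells, 88 of them from Sod1KO GFP+ and 10 from WT GFP+) was led by Csmd3, Grik2, Slc35f1, Adarb2, Tafa2 and Nkain2, and 8 markers of myelinating Schwann cells summed to 2028 CPM in it. Group 2 (103 cells, 82 from Sod1KO GFP+) was led by Ube2c, Retnla, Top2a, H2-Ab1, H2-Aa and Cd52, which include genes of dividing cells and of antigen presentation. Group 6 (30 cells, 12 of the 17 WT GFP- members) was led by Tie1, Cldn5, Bmx, Tal1, Dach1 and Pappa2 and had 3785 CPM of endothelial markers. Group 7 (21 cells) was led by Gpha2, Wif1, Col22a1, Chad, Eya4 and Shisal2b and had 11128 CPM of tenocyte markers. Group 8 (11 cells) was led by Plin4, Cnn1, Myh11, Pgam2, Lrrc10b and Fbxl22 and had 18524 CPM of mural markers.

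**Figure D3:**
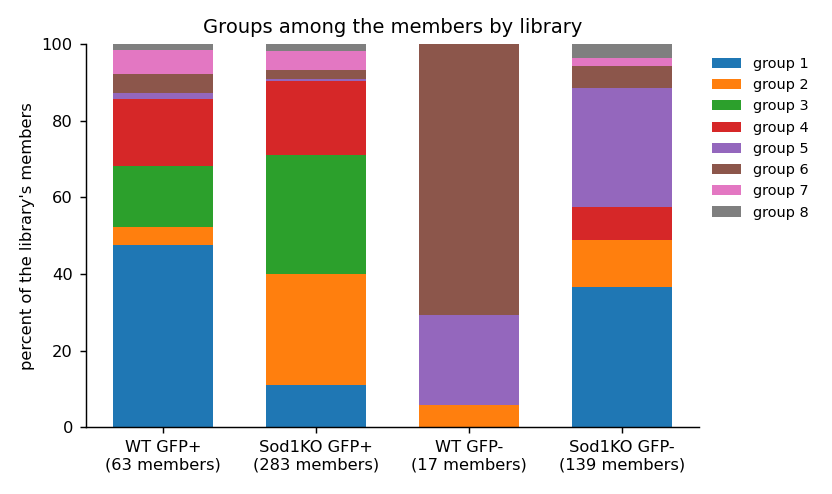
Percent of each library's members (y axis) in the 8 groups found by clustering without the rule genes, for the 4 libraries (x axis). Group 1 holds 30 of 63 WT GFP+ members and 31 of 283 Sod1KO GFP+ members, and group 6 holds 12 of the 17 WT GFP- members.

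Among the leading genes, Sfrp5 and Lgals7 ran in opposite orders over groups 1, 4 and 5. Sfrp5, a secreted antagonist of Wnt, stood at 2001 CPM in group 1, 370 CPM in group 4 and 4922 CPM in group 5. Lgals7 stood at 277, 1402 and 9.70 CPM in the same groups. Msln, the mesothelin gene, stood at 37.8, 2.66 and 216 CPM. The tight junction gene Cldn1 was more even, at 829, 661 and 952 CPM, and Col18a1, a heparan sulfate collagen of basement membranes, stood at 159, 442 and 25.6 CPM.

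The genotypes were compared first in the GFP+ members, 63 in WT and 283 in Sod1KO. Of 12551 genes with at least 20 UMIs, 774 (6.17%) were at least 2-fold higher in the library labelled Sod1KO and 693 (5.52%) at least 2-fold lower. The genes ranked highest by the interval end nearest to 0 were Gap43, Hmga2, Fgf5, Olig1, Sema4f, Tnc, Tafa2, Btc, Runx2 and Cfap299, of which Gap43, Olig1 and Tnc are known from Schwann cells after injury. Gap43 stood at 2.48 CPM in WT and 109 CPM in Sod1KO (log2 ratio 5.46, 3.90 to 7.74). Among the members without another type's markers it stood at 8.38 and 14.9 CPM (0.83, -0.98 to 3.25). Btc and Cfap299 turned there to -0.85 and -0.59. Hmga2, Fgf5, Olig1 and Sema4f had at most 1 UMI in those members, while Schwann cell markers were carried by 25 of 63 WT and 185 of 283 Sod1KO members. Of the 774 higher and 693 lower genes, 133 and 78 were also called in the members without other markers, where 596 of 7955 genes (7.49%) were higher and 408 (5.13%) lower. Markers of other types differed too: summed over 8 genes each, WT and Sod1KO GFP+ members held 1257 and 1491 CPM of myelinating Schwann markers, 507 and 230.4 CPM of endothelial, 1674 and 787 CPM of mural, 2482 and 1360 CPM of tenocyte and 958 and 28.3 CPM of macrophage markers. A few cells can set such sums. At least 4 tenocyte markers were detected in 5 of 63 WT and 33 of 283 Sod1KO members, with medians per cell of 166 and 182 CPM. For macrophage markers this held for 1 and 1 members, with medians of 0, and for mural markers for 6 and 17. Nonmyelinating Schwann markers, also 8 genes, summed to 349 and 437 CPM. At least 4 of them were detected in 12 of 63 WT and 118 of 283 Sod1KO members. Of these lists only the macrophage one had a gene at 0 (C1qa in WT), and the part of other cells' RNA in the genotype calls was not tested.

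Lgals7 is a rule gene, so its values describe the chosen cells, and sets that share the condition of at least 4 rule genes are not independent of each other. Its level was 145 CPM in WT and 826 CPM in Sod1KO over all members (log2 ratio 2.51, 2.29 to 2.74), 117 and 1008 CPM without other types' markers (3.10, 2.66 to 3.58), and 112 and 650 CPM in the mixed cells (2.54, 2.43 to 2.65). Within group 1 the ratio was 2.36 (1.83 to 2.93) and within group 4 it was 1.30 (0.99 to 1.63). In endothelial-type cells it stood at 0.45 and 0.90 CPM. In the GFP- members it had 0 UMIs in WT and 399 UMIs (131 CPM) in Sod1KO. The gene lies on chromosome 7 from 28863796 to 28866285 in GRCm38.

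Sfrp5 was lower in Sod1KO in the same sets. It stood at 916 and 275 CPM in WT and Sod1KO GFP+ members (log2 ratio -1.73, -1.84 to -1.62), at 1685 and 491 CPM in members without other markers (-1.78, -1.95 to -1.61) and at 1379 and 686 CPM in mixed cells (-1.01, -1.06 to -0.95). Within groups 1 and 4 the ratio was -0.89 and -1.08. In endothelial-type cells the levels were 31.3 and 16.6 CPM, and in the GFP- members they were 2560 and 2684 CPM. The gene lies on chromosome 19 from 42197971 to 42202252 in GRCm38.

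Junction genes were mostly near even between genotypes, and transporters were lower in Sod1KO more often than higher. Of 29 junction genes listed, 21 had a ratio in GFP+ members, with a median log2 ratio of -0.17 beside 0.01 over all genes. Of these 21, 2 (Cldn11 and Gjb2) were at least 2-fold higher and 1 (Cdh2) lower, beside 6.17% and 5.52% of all genes. Cldn1 had a ratio of -0.15 (-0.29 to -0.02), and Tjp1, the scaffold ZO-1, one of -0.26 (-0.44 to -0.09). Perp, a desmosomal protein, stood at 98.5 and 50.9 CPM (-0.95, -1.26 to -0.64), and at 179 and 72.5 CPM in members without other markers (-1.30, -1.80 to -0.80). Of 20 transporters with a ratio, 2 were at least 2-fold higher and 4 lower, with a median of -0.30, where 5.52% of all genes were called lower. Without other markers 10 of 12 had a ratio below 0, with a median of -0.43, and only Slc1a3 was at least 2-fold lower. Slc2a1 stood at 345 and 226 CPM (-0.61, -0.77 to -0.45) and at 581 and 299 CPM without other markers (-0.96, -1.21 to -0.70), but within groups 1 and 4 its ratio was -0.05 and -0.09.

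Itgb4 behaved like Slc2a1 in this respect. It stood at 286 and 125 CPM in WT and Sod1KO GFP+ members (-1.19, -1.38 to -1.01) and at 528 and 181 CPM without other markers (-1.54, -1.84 to -1.25). Its ratio was -0.22 (-0.50 to 0.06) within group 1 and -0.05 (-0.74 to 0.71) within group 4. Group 1, where Itgb4 stood at 615 CPM, held 30 of 63 WT and 31 of 283 Sod1KO GFP+ members, while group 4, where it stood at 152 CPM, held 11 and 55 of them.

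Basement membrane genes were not uniform. Of 25 listed, 22 had a ratio, with a median of 0.03. In Sod1KO 4 (Lamc3, Col15a1, Col18a1 and Hspg2) were at least 2-fold higher and 1 (Tinagl1) lower, beside 6.17% and 5.52% of all genes. Col18a1 stood at 182 and 452 CPM (1.31, 1.11 to 1.51), at 162 and 430 CPM without other markers (1.41, 1.01 to 1.83) and at 173 and 324 CPM in mixed cells (0.91, 0.81 to 1.01). Within group 1 its ratio was 0.00 (-0.52 to 0.54) and within group 4 it was 0.24 (-0.19 to 0.71). In endothelial-type cells Col18a1 stood at 74.3 and 126 CPM. Col15a1, another collagen of the outer lamina, stood at 118 and 299.5 CPM (1.35, 1.10 to 1.61) and at 145 and 345 CPM without other markers (1.25, 0.83 to 1.70). Lama2, the laminin chain of muscle and nerve basement membranes, stood at 426 and 548 CPM (0.36, 0.23 to 0.50), and the type IV collagen gene Col4a1 at 579 and 551 CPM (-0.07, -0.19 to 0.05).

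Matrix and cytokine genes held some of the largest ratios that remained without other types' markers. Lum, a small proteoglycan that binds fibrillar collagen, stood at 116 and 587 CPM (2.34, 2.10 to 2.60) and at 165 and 921 CPM without other markers (2.48, 2.10 to 2.89). Fbn2, a microfibril protein, stood at 14.9 and 58.3 CPM (1.97, 1.29 to 2.74), and without other markers it had 0 UMIs in WT and 107 in Sod1KO. Within group 1 Fbn2 had 0 and 19 UMIs, and within group 4 its ratio was 0.88 (-0.31 to 2.38). Il6, a cytokine, stood at 27.3 and 110 CPM (2.01, 1.50 to 2.56) and at 19.6 and 139 CPM without other markers (2.82, 1.75 to 4.16). Il6 also stood at 62.1 and 93.9 CPM in endothelial-type cells of the same libraries, and Lum at 26.1 and 44.3 CPM. Igf1, a growth factor, stood at 198 and 386 CPM in members (0.96, 0.77 to 1.16) and at 72.5 and 59.7 CPM in endothelial-type cells. Of 28 fibrillar and other matrix genes with a ratio, 3 were at least 2-fold higher and 5 lower over all members, beside 6.17% and 5.52% of all genes. Without other markers 5 (Fbn2, Col28a1, Lum, Tnc and Thbs2) of 27 were higher and 3 (Ogn, Col14a1 and Thbs4) lower, beside 7.49% and 5.13%. Type I collagen went opposite ways in 2 sets: Col1a1 had a ratio of -1.50 over all members, -0.33 without other markers and 0.79 in mixed cells, and group 7, with its tenocyte markers, held 4 of 63 WT and 14 of 283 Sod1KO members.

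Among signalling genes, Ptch1 was lower in Sod1KO. Ptch1, the hedgehog receptor that is itself induced by hedgehog, stood at 507 and 234 CPM (-1.12, -1.25 to -0.98), at 849 and 322 CPM without other markers (-1.40, -1.63 to -1.17) and at 497 and 315 CPM in mixed cells (-0.66, -0.74 to -0.58). In endothelial-type cells it stood at 34.6 and 36.6 CPM. Within groups 1 and 4 its ratio was -0.64 (-0.87 to -0.42) and -1.22 (-1.55 to -0.88). Other genes of the pathway did not share this size of difference. Gli1, a target of the pathway, stood at 58.8 and 52.5 CPM (-0.16, -0.54 to 0.23), Gli2 at 50.5 and 60.0 CPM (0.25, -0.14 to 0.66), and Smo at 78.7 and 64.3 CPM (-0.29, -0.61 to 0.05). Of 11 hedgehog genes with a ratio, only Ptch1 was at least 2-fold lower and only Dhh higher, beside 5.52% and 6.17% of all genes. Dhh, the Schwann cell ligand, had 1 UMI in each set of GFP+ members without other markers, while mixed cells held 55.7 and 60.9 CPM.

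Retinoid genes differed in direction. Stra6 stood at 66.2 and 120 CPM (0.86, 0.53 to 1.21), and Rdh10, which oxidizes retinol, at 40.6 and 114 CPM (1.49, 1.08 to 1.94). Aldh1a3, which makes retinoic acid, stood at 9.94 and 29.4 CPM (1.56, 0.73 to 2.54). Without other markers the ratios of these 3 genes were 1.06, 2.28 and 2.18. The Stra6 ratio was 1.33 (0.55 to 2.18) within group 1 and 0.24 (-0.38 to 0.92) within group 4. Of 15 retinoid genes with a ratio, 2 were at least 2-fold higher and 3 (Aldh1a2, Rbp4 and Rarb) lower over all members. Over all genes, 6.17% were called higher and 5.52% lower. The Wnt ligand Wnt6 stood at 209 and 172 CPM (-0.28, -0.48 to -0.07). Of 16 Wnt genes with a ratio, 3 (Sfrp4, Dkk2 and Nkd1) were at least 2-fold higher and only Sfrp5 lower, beside the same shares of all genes.

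The genes ranked lowest in Sod1KO GFP+ members were Bche, Pcp4, Sfrp5, Adam12, Tmtc1, Ptprd, Olfr1033, Col4a4, Tsc22d3 and Ajap1. Of these, Adam12 turned to a ratio of 0.41 (-0.92 to 1.99) without other markers, and Ptprd to 0.061 in groups 1, 4 and 5. Pcp4, a calmodulin regulator, stood at 43.9 and 7.85 CPM (-2.48, -3.07 to -1.90) and at 101 and 15.8 CPM without other markers (-2.67, -3.59 to -1.80). Tmtc1 stood at 74.5 and 18.8 CPM in members (57.8 and 70.3 CPM in endothelial-type cells), and at 103 and 19.5 CPM without other markers (-2.40, -3.25 to -1.59). Olfr1033, annotated as an olfactory receptor, stood at 226 and 70.9 CPM, and its ratio within groups 1 and 4 was -0.39 and -2.28. Tsc22d3, a glucocorticoid target, stood at 181 and 66.6 CPM (-1.44, -1.68 to -1.20), and it was also lower in endothelial-type cells (113 and 76.8 CPM). Bche, Adam12 and Ajap1 had at most 24 UMIs in any set of GFP+ members without other markers.

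The antioxidant list, which bears on the loss of Sod1, was near even. Of 30 genes with a ratio, 0 were at least 2-fold higher in Sod1KO GFP+ members and 3 (Slc7a11, Gclc and Mt2) lower, with a median of 0.13. Over all genes, 6.17% were called higher and 5.52% lower. Sod2, the mitochondrial superoxide dismutase, stood at 77.8 and 79.9 CPM (0.04, -0.28 to 0.37). The metallothionein Mt2 stood at 498 and 242 CPM (-1.04, -1.18 to -0.90) and at 319 and 214 CPM without other markers (-0.57, -0.90 to -0.24), and in endothelial-type cells it stood at 185 and 126 CPM. Of 22 immediate early and heat shock genes, 0 were 2-fold apart in either direction, with Fos at 3628 and 3394 CPM.

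**Figure D4:**
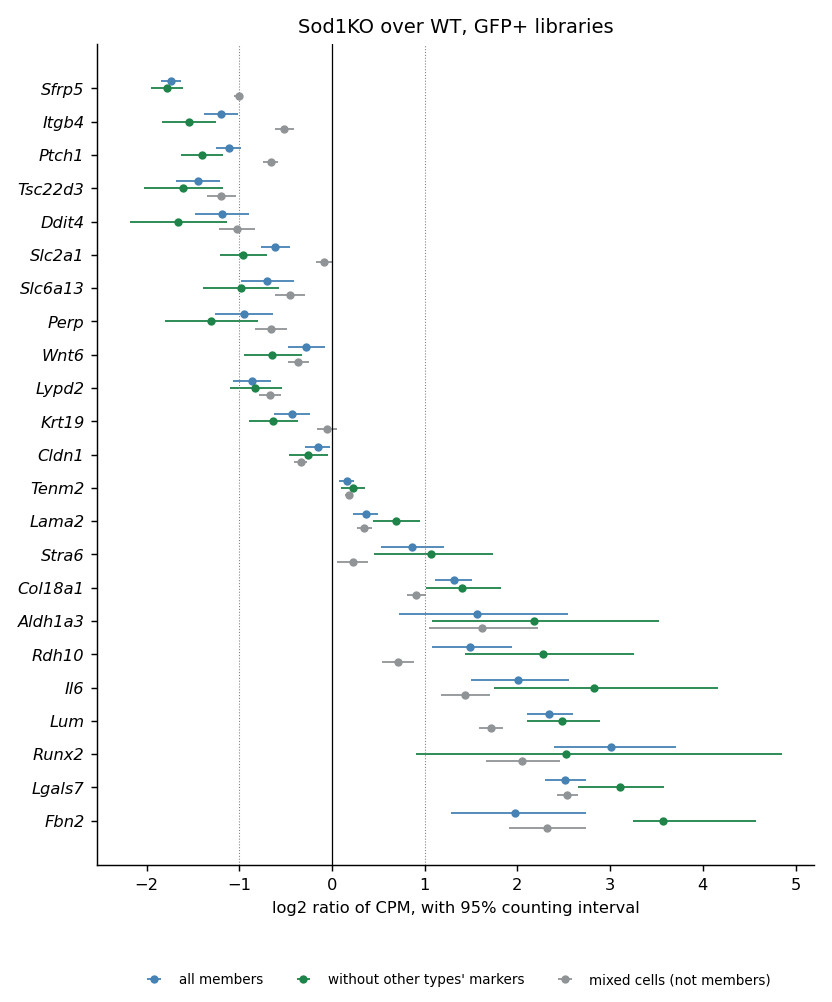
Log2 ratio of CPM in Sod1KO over WT (x axis) with 95% counting intervals for named genes (y axis) in the GFP+ libraries, for all members, members without other types' markers, and mixed cells. Lgals7 lies at 2.51, 3.10 and 2.54 and Sfrp5 at -1.73, -1.78 and -1.01 in the 3 sets, dotted lines mark 2-fold, and the Fbn2 point without other markers is set against the floor of 3 UMIs, so its upper end is open and drawn 1 unit beyond the point.

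Members of the GFP- and GFP+ libraries of the Sod1KO pool were compared next. Of 13008 genes, 939 (7.22%) were at least 2-fold higher in GFP- and 1211 (9.31%) at least 2-fold lower. Among members without other types' markers, 109 GFP- and 86 GFP+ cells, 806 of 10238 genes (7.87%) were higher and 525 (5.13%) lower, and 430 and 296 of them were shared with the calls over all members. Among the lowest genes over all members were Kcna1, Nkain2, Grik2, Chl1, Zfp536, Ptprz1, Adam23, Reln and Gjc3. Schwann cell markers were carried by 8 of 139 GFP- and 185 of 283 GFP+ members. The 8 nonmyelinating Schwann markers summed to 114 CPM in GFP- and 437 CPM in GFP+ members. At least 4 of them were detected in 4 of 139 GFP- and 118 of 283 GFP+ members. Summed over each list, GFP- and GFP+ members held 239 and 1491 CPM of myelinating Schwann markers (Gjb1 at 0 in GFP-), 537 and 230.4 CPM of endothelial, 1676 and 787 CPM of mural and 1443 and 58.8 CPM of erythroid markers, and the part of other cells' RNA in these differences was not tested. At least 4 erythroid markers were detected in 1 of 139 GFP- and 1 of 283 GFP+ members, and at least 4 mural markers in 11 and 17. S100b, the gene whose promoter drives the reporter, stood at 52.1 CPM in GFP- and 69.4 CPM in GFP+ members (-0.41, -0.68 to -0.15), and at 60.1 and 53.0 CPM without other markers (0.18, -0.28 to 0.66).

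Part of the barrier genes were higher in GFP- members. Of 22 junction genes with a ratio, 8 were at least 2-fold higher in GFP- and 3 lower, where 7.22% and 9.31% of all genes were called. The median was 0.65 beside -0.04 over all genes, and without other markers 7 of 17 were higher and 0 lower. Perp stood at 232 CPM in GFP- and 50.9 CPM in GFP+ (2.19, 2.00 to 2.38), and at 241 and 72.5 CPM without other markers (1.73, 1.39 to 2.10). F11r, the junctional adhesion molecule A, stood at 157 and 59.5 CPM without other markers (1.40, 1.01 to 1.81), and in endothelial-type cells of the same libraries at 218 and 169 CPM. Of 20 transporters with a ratio, 8 were higher and 2 lower, with a median of 0.60, and without other markers 9 of 16 were higher and 2 lower. Slc16a1, which carries lactate, stood at 340 and 53.1 CPM (2.68, 2.50 to 2.86), and at 352 and 93.0 CPM without other markers (1.92, 1.62 to 2.23). Slc2a1 stood at 668 and 226 CPM (1.57, 1.47 to 1.66), but its ratio was 0.58 (0.37 to 0.79) within group 1 and -0.41 (-0.83 to -0.01) within group 4. Abcb1a, an efflux pump of blood-tissue barriers, stood at 269 and 58.3 CPM (2.20, 2.03 to 2.38). Abcb1a was also at 133 and 102 CPM in endothelial-type cells, whose markers 12 GFP- and 9 GFP+ members carried.

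Basement membrane genes went both ways. Of 23 with a ratio, 7 were at least 2-fold higher in GFP- members and 4 (Lamc3, Col18a1, Col15a1 and Lamb1) lower, with a median of 0.48, and without other markers 7 of 22 were higher and 4 lower. Over all genes, 7.22% were called higher and 9.31% lower. Ntn4, a rule gene whose values helped choose the cells, was among the 7 higher without other markers. Their integrin receptor chain Itgb4 stood at 557 and 125 CPM (2.16, 2.04 to 2.28) and at 596 and 181 CPM without other markers (1.72, 1.50 to 1.94). Within group 1 its ratio was 0.03 (-0.19 to 0.25). Lamb3, a chain of the laminin that binds this integrin in epithelia, stood at 38.7 and 1.23 CPM (4.97, 3.95 to 6.22), and Lamb2 at 618 and 221 CPM (1.49, 1.39 to 1.59). Lamb1, another laminin chain, stood at 62.9 and 159.7 CPM (-1.34, -1.57 to -1.12). Col18a1 ran the other way, at 120 and 452 CPM (-1.91, -2.07 to -1.75), as did Col15a1, at 94.7 and 299.5 CPM (-1.66, -1.84 to -1.48), and Lama2, at 289 and 548 CPM (-0.92, -1.03 to -0.82). Without other markers the ratios of these 3 genes were -1.73, -1.85 and -1.13. The Col18a1 ratio was -0.41 (-0.83 to 0.01) within group 1 and -0.32 (-0.68 to 0.03) within group 4.

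Wnt genes were higher in GFP- members more often than lower. Of 18 Wnt genes with a ratio, 9 were at least 2-fold higher in GFP- members and 2 (Nkd1 and Frzb) lower, with a median of 1.14. Over all genes, 7.22% were called higher and 9.31% lower. Without other markers 8 of 15 were higher and 3 (Wnt5b, Nkd1 and Sfrp4) lower, beside 7.87% and 5.13% of all genes. Sfrp5 stood at 2684 and 275 CPM (3.28, 3.21 to 3.36) and at 2888 and 491 CPM without other markers (2.56, 2.43 to 2.69). Its ratio was 1.09 (0.94 to 1.24) within group 1 and -0.65 (-1.12 to -0.21) within group 4. Rspo1, an R-spondin that enhances Wnt signalling, stood at 78.3 and 2.46 CPM (4.99, 4.26 to 5.82). Ptch1 stood at 388 and 234 CPM (0.73, 0.62 to 0.84), and at 422 and 322 CPM without other markers (0.39, 0.21 to 0.57), but its ratio was -0.18 (-0.37 to 0.02) within group 1 and 0.45 (0.11 to 0.77) within group 4.

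Beside Rspo1, Lamb3 and Sfrp5, the genes ranked highest in GFP- members were Col6a5, Msln, Npr3, Olfr1033, Stmn2, Slc16a9 and Snhg11. Msln stood at 103 and 2.92 CPM (5.13, 4.47 to 5.88) and Col6a5 at 113 and 1.85 CPM (5.94, 5.11 to 6.90), and both led group 5, of which 43 cells were GFP- and 1 was GFP+ among Sod1KO members. Olfr1033 stood at 1012 and 70.9 CPM (3.84, 3.69 to 3.98), and within groups 1 and 4 its ratio was 1.79 and 1.08. Stmn2, a microtubule regulator of neurons, stood at 253 and 17.2 CPM in members (3.87, 3.59 to 4.17) and at 140 and 127 CPM in endothelial-type cells.

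Secreted factors were mostly lower in GFP- members. Of 36 secreted ligands with a ratio, 7 were at least 2-fold higher and 16 lower, beside 7.22% and 9.31% of all genes. The median was -0.62, and without other markers 6 of 29 were higher and 11 lower. Saa1, an acute phase apolipoprotein, stood at 10.5 CPM in GFP- and 142 CPM in GFP+ (-3.76, -4.31 to -3.25). Il6 stood at 30.8 and 110 CPM (-1.83, -2.16 to -1.52), and it was also lower in GFP- endothelial-type cells (29.4 and 93.9 CPM). The Il6 ratio was 0.81 (-0.40 to 2.24) within group 1 and -0.28 (-0.86 to 0.27) within group 4. Igf1 stood at 135 and 386 CPM (-1.52, -1.67 to -1.37), and Penk, the precursor of enkephalin, at 47.5 and 143 CPM (-1.59, -1.86 to -1.34). Lgals7 stood at 131 and 826 CPM (-2.66, -2.81 to -2.51), and its ratio was -1.52 within group 1 and -1.28 within group 4. Mt1 stood at 375 and 1303 CPM (-1.80, -1.89 to -1.71), and in endothelial-type cells at 248 and 619 CPM.

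**Figure D5:**
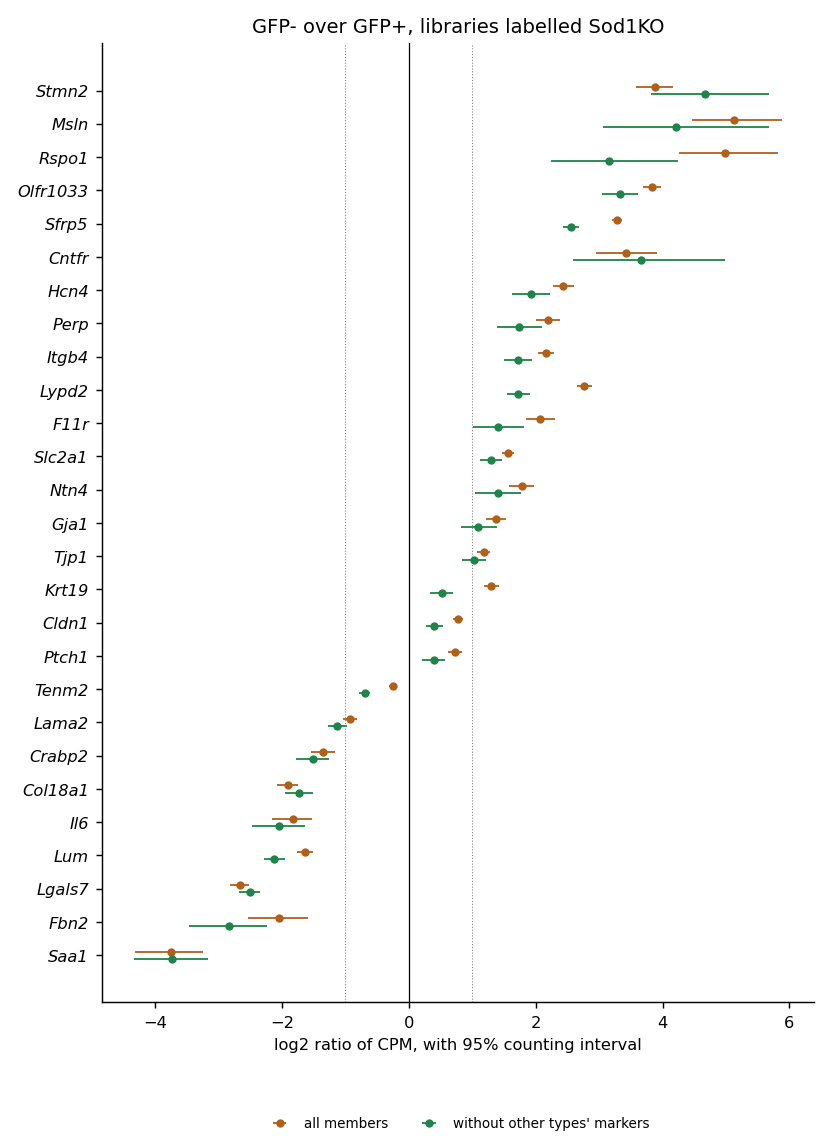
Log2 ratio of CPM in GFP- over GFP+ members (x axis) with 95% counting intervals for named genes (y axis) in the libraries labelled Sod1KO, for all members and for members without other types' markers. Sfrp5 lies at 3.28 and 2.56 and Lgals7 at -2.66 and -2.51 in the 2 sets; dotted lines mark 2-fold.

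In the GFP- fraction the genotypes were set side by side only for named genes, since WT had 17 members. Slc2a1 stood at 816 CPM in WT and 668 CPM in Sod1KO, Itgb4 at 602 and 557 CPM, Lypd2 at 807 and 816 CPM and Hcn4 at 317 and 336 CPM. Tenm2 stood at 342 and 1081 CPM and Lum at 41.6 and 188 CPM. The 5 WT members without other markers had 0 UMIs of Lgals7 and of Lum, in 146894 UMIs, against 177 and 212 CPM in 109 Sod1KO members, and 3 UMIs in WT would have been 20.4 CPM.

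By definition, the mixed cells met every part of the rule except the limit on myelin genes. The 12 further perineurial markers, which the rule did not use, summed to 3504 and 3460.1 CPM in mixed cells of WT and Sod1KO GFP+ and to 3470 and 3436 CPM in members. Not all lists were this even. The 8 myelinating Schwann markers outside the rule summed to 16782 and 13451 CPM in mixed cells, against 1257 and 1491 CPM in members. Mural markers summed to 409 and 405 CPM against 1674 and 787 CPM, and tenocyte markers to 641 and 924 CPM against 2482 and 1360 CPM. Medians per cell lay closer, at 150 and 142 CPM against 314 and 133 CPM for mural markers. For tenocyte markers they were 185 and 182 CPM against 166 and 182 CPM. The median share of myelin-gene UMIs in mixed cells was 0.456% and 0.347%. Between 0.1% and 0.2% myelin UMIs lay 25 WT and 40 Sod1KO mixed cells, and between 0.05% and 0.1% lay 6 and 39 members.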

How the data were processed

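The deposited values were unique molecular identifier (UMI) counts per gene and barcode of 4 libraries, 32285 genes each, which the authors made with Cell Ranger (the submitters' notes name version 7.1.0, Seurat 4.30 and the mm10 build). Free RNA and doublet removal that the study's methods describe are later steps and were not in these counts. No feature for the GFP transcript was among the genes (0 found), and 38 symbols carried by several identifiers, Aldoa among them, were left out of gene lists. The nerve crush samples of the study were not analysed here.

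The members and the gene lists were chosen with earlier results of these data known. UMIs were summed over members and divided by their total (CPM). Log2 ratios carry exact conditional binomial 95% intervals, shares Clopper-Pearson and differences of shares Newcombe intervals. A library at 0 was set to a floor of 3 UMIs, no ratio was given where both were at 3 or fewer, and genes with at least 20 UMIs over both libraries formed the background. A gene was called at a 2-fold difference. Some lists counted here hold rule genes: Cldn1 and Cldn19 (junctions), Slc6a13 (transporters), Ntn4 (basement membrane) and Crabp2 (retinoid). The ratios were tested on simulated data.

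Genes named were the 17 rule genes, members of role lists with at least 100 UMIs in both libraries, the 20 leading genes at 50 CPM or more (WT GFP- not used), the 6 leading genes of each group, and the 10 highest and 10 lowest genes of each comparison by the interval end nearest 0. The last kind needed 50 UMIs in 1 library and no cell with over 25% of them, and left out mt-, Rpl, Rps, Gm and Rik genes. Listed genes below 100 UMIs in a library (such as Lamb3, Fbn2, Aldh1a3, Rdh10, Il6, Saa1, Sod2, Smo and the Gli genes) were named after their values were seen, and the marker-free and mixed sets were added after seeing the data.

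Members were clustered with Leiden (resolution 0.5, 1000 variable genes, 15 components, 15 neighbours). Doublets were marked from simulated pairs with 50 neighbours at 0.8% per 1000 barcodes. The clustering used leidenalg 0.10.2 on igraph 0.11.9. Neighbours came from scikit-learn 1.9.0. Intervals came from scipy 1.17.1, tables from pandas 2.3.3 and figures from matplotlib 3.10.9, under Python 3.11.15 with numpy 2.4.6. Gene coordinates are those of RefSeq on GRCm38.p6. Alternatives were other limits of the rule, stricter cell filters, doublet removal, thinning to 3000 UMIs, per-cell means, median-of-ratios scaling, subtraction of 5% free RNA and no minimum count. Some listed genes are not reported here.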

Additional observations from a re-analysis of the deposited data

Results flagged for a closer look

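For 13 genes the Sod1KO over WT log2 ratio lay at least 2-fold on opposite sides in the GFP+ and the GFP- members, and the difference between the fractions was not tested. WT GFP- had 17 members, of which 12 carried endothelial markers. Some of its counts were small, such as 6 UMIs of Col6a5 (GFP- interval 1.42 to 4.01) and 5 of Ptprd (1.05 to 3.93).

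Of matrix genes, Col6a5 had a ratio of -3.60 in GFP+ and 2.56 in GFP- members, and of -4.02 and 1.28 among members without another type's markers. Clec3b, which encodes tetranectin, had ratios of -1.50 and 1.24, and of -2.33 and 1.25 without other markers. These 2 genes kept opposite signs in the smaller sets. The type I collagen genes Col1a1 (-1.50 and 1.13) and Col1a2 (-1.28 and 1.78) had ratios of -0.33 and -0.76 in GFP+ and -0.01 and 0.63 in GFP- members without other markers. Angptl7 (-1.25 and 1.24) stood at 2.46 and 0.16 without other markers, and so turned in the GFP+ fraction.

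Of signalling genes, Ccl2, a chemokine for monocytes, had ratios of 1.40 and -1.53, and of 2.17 and -5.57 without other markers, where the 5 WT GFP- members held 257 UMIs of it. The complement gene C3 had ratios of 1.16 and -1.80 (0.73 and -2.87 without other markers). The receptor phosphatase Ptprd had ratios of -1.70 and 2.29 (-0.64 and 2.03), and the retinoic acid receptor Rarb -1.28 and 1.70 (-0.13 and 0.59).

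Of markers of other or dividing cells, Lyz2 of macrophages had ratios of -5.79 and 1.36, the latter against the floor. Myh11 of smooth muscle had ratios of -1.41 and 1.08, and the intermediate filament gene Nes 1.02 and -1.95. Top2a, a topoisomerase of dividing cells, had ratios of -1.04 and 1.62, the latter against the floor.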

How the results depend on the processing

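The higher share of perineurial cells in Sod1KO GFP+ (3.18 points) became 4.22 with at least 3 rule genes, 2.46 with at least 5, 4.02 with more than 500 genes and under 5% mitochondrial UMIs, and 1.02 after thinning to 3000 UMIs. Among alternatives chosen after seeing the data it was 0.633 without members that carried another type's markers and 0.502 in groups 1, 4 and 5, and it turned to -0.443 with no limit on the myelin genes. In GFP- it was 1.33 to 1.78 points under every alternative run.

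The Sod1KO over WT count of lower genes (693) became 2141 with no minimum count, 408 without other types' markers, 341 in groups 1, 4 and 5 and 397 in members with 0 myelin UMIs, where the higher count (774) became 350. In the GFP- over GFP+ comparison the higher count (939) became 1516 with no minimum count, and the lower count (1211) became 525, 524 and 492 in the same 3 smaller sets of members, in which fewer genes were compared. Without other types' markers the ratio of Btc turned to -0.85, that of Cfap299 to -0.59 and that of Adam12 to 0.41, and that of Ptprd turned to 0.061 in groups 1, 4 and 5 and 0.0063 with 0 myelin UMIs. The causes were not tested. With 5% free RNA subtracted, 20 of 20 ranked genes of each comparison kept their direction within the counting interval. The same held with no minimum count and with median-of-ratios scaling, but neither could have changed it. The first leaves each ratio as it was. The second moves all log2 ratios of a comparison by the same small amount (shifts of -0.032 for genotype and -0.011 for sort). In the genotype and the sort comparison, 8 and 6 of 20 moved beyond it with doublets removed, 11 and 6 with per-cell means, 10 and 15 with at least 3 rule genes, and 7 (of 14 with a ratio, 3 more turned) and 17 without other types' markers. No paired analysis was possible because each group had 1 library. Depth limits WT GFP- most, with 17 members.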
